A study of Mus musculus with 2 samples.

Results

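The microRNA genes Mir199a-1, Mir199a-2, Mir199b and Mir214 were followed in mouse gastrocnemius, the main muscle of the calf. They are the 4 genes, of 2202 microRNA genes in the files, whose Ensembl identifiers carry these names in GENCODE mouse release 21. Small RNA under 30 nt was sequenced in 2 libraries, labelled biological replicates 2 and 1. Both came from female B6CASTF1/J mice aged 2 months, F1 hybrids of the strains C57BL/6J and CAST/EiJ, and no treatment is named. Per the labels these were different females, although 1 donor code stands for both, so differences between the libraries may be technical. There is no second condition: each level describes this muscle, and the comparison is between the 2 libraries.

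MicroRNAs are cut from hairpin transcripts, and either arm of a hairpin, 5p or 3p, can be loaded into Argonaute to repress messenger RNAs that pair with its seed. The miR-199 and miR-214 hairpins lie on the opposite strand of dynamin genes, which encode GTPases that pinch off membrane vesicles. In the mouse, Mir199a-2 and Mir214 are transcribed together as Dnm3os, a long noncoding RNA of embryonic mesenchyme and connective tissue that the transcription factor Twist1 can drive. miR-199a-5p and miR-214 are known for their rise in fibrosis, with caveolin 1 a target of miR-199a-5p in lung fibroblasts. In mouse muscle cells, miR-214 is known to repress Ezh2, a histone methyltransferase that holds back muscle genes. Bulk tissue does not tell which cells made a microRNA, and fibroblast messenger RNAs were not measured, so the label of fibroblast microRNAs could not be checked here.

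The mature sequences are shown because they decide which reads can be placed in 1 gene. Sequences and positions are from RefSeq on GRCm38.p6, 5′ to 3′, with the seed (bases 2 to 8) in capitals. All 4 genes matched the table by symbol.
miR-199a-5p of Mir199a-1 and Mir199a-2: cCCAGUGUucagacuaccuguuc
Mir199b hairpin at the place of that arm: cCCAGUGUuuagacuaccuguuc
miR-199a-3p of Mir199a-1 and Mir199a-2: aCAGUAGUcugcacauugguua
miR-199b-3p of Mir199b: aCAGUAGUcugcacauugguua
miR-214-5p: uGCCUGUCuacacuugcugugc
miR-214-3p: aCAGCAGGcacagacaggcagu

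The 3p arm had the same 22 letters in all 3 Mir199 genes, and no other annotated microRNA gene held it. The 5p arm of 23 nt was identical in Mir199a-1 and Mir199a-2. In Mir199b the matching stretch carried 1 substitution, C10U, with positions counted from the 5′ end of miR-199a-5p. That substitution lies outside the seed, so all 3 genes shared the 5p seed, CCAGUGU, while the whole stretch occurred in Mir199b alone among the microRNA genes. Each arm of Mir214 was also found in no other microRNA gene.

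The hairpins are shown to place the arms, which are in capitals.
Mir214 hairpin: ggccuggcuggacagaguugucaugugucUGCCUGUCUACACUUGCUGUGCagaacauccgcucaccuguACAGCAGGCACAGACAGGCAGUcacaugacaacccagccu
Mir199b hairpin: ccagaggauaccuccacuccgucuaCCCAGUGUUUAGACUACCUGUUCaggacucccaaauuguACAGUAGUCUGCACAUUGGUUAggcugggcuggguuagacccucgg
Mir199a-2 hairpin: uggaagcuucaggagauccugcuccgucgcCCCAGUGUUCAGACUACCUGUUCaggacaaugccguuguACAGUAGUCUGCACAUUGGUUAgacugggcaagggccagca
Mir199a-1 hairpin: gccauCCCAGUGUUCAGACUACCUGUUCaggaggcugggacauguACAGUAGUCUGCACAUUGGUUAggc

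The Mir199 hairpins shared uninterrupted runs of 27 or 28 letters with each other, longer than either mature arm. Mir199a-1 and Mir199b were identical at 84.5% of aligned positions, Mir199a-1 and Mir199a-2 at 83.1%, and Mir199a-2 and Mir199b at 79.4%. The longest run that any of them shared with Mir214 was 7 letters.

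All positions are in GRCm38, named mm10 in the files. Mir214 (ENSMUSG00000065516.1) lies on the plus strand of chromosome 1, from 162223368 to 162223477. Mir199a-2 (ENSMUSG00000070126.1) lies on the same strand from 162217814 to 162217923, 5444 bp away. Each is whole within an exon of 2 annotated Dnm3os transcripts and, on the other strand, in intron 14 of the 21-exon Dnm3 transcript. Mir199b (ENSMUSG00000092807.1) lies on the plus strand of chromosome 2, from 32318460 to 32318569, opposite intron 15 of Dnm1, in its coding transcript of 23 exons. Mir199a-1 (ENSMUSG00000065547.1) is at chromosome 9, 21496495 to 21496564, minus strand, opposite intron 15 of Dnm2, in its coding transcript of 21 exons. No annotated microRNA gene overlaps any of the 4. The only other microRNA gene within 10000 bp of one of them was Gm23363, 116 bp from Mir199b, with 0 counts in both libraries.

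**Figure D1:**
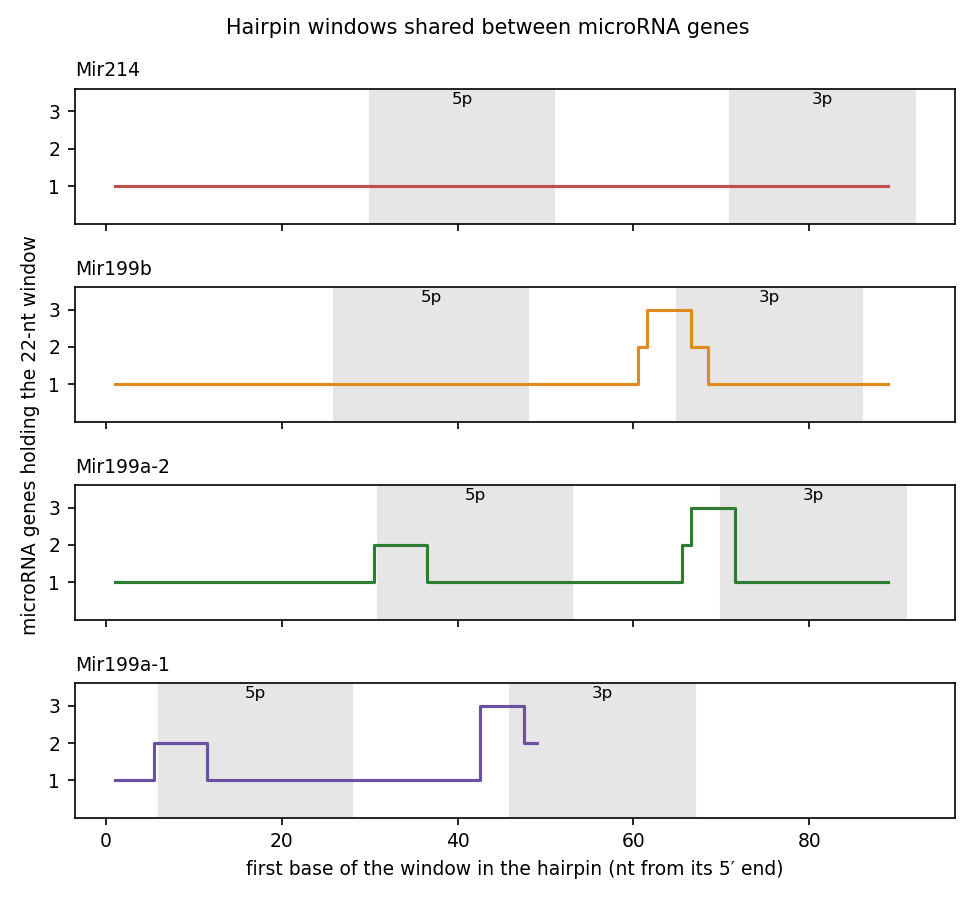
Number of microRNA genes, on the vertical axis, that hold each window of 22 nt of the hairpin, plotted by the window's first base in nt from the 5′ end. Grey spans mark the 5p and 3p arms. Every window of Mir214 stays at 1 gene, the Mir199 genes rise to 3 genes at the 3p arm, and Mir199a-1 and Mir199a-2 rise to 2 genes at the 5p arm.

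The files count only reads placed in 1 gene, so the room for such reads was measured on each hairpin. All 89 windows of 22 nt in Mir214 occurred in no other microRNA gene. This held for 81 of 89 windows in Mir199b, 77 of 89 in Mir199a-2 and 36 of 49 in Mir199a-1. Over windows that cover at least 18 nt of an arm, 18 of 18 were found in Mir214 alone. Mir199b had 11 of 19 such windows, Mir199a-2 had 7 of 19 and Mir199a-1 had 5 of 18. Of the Mir199b windows, 10 of 10 on the 5p arm and 1 of 9 on the 3p arm were its own. The plot of shared hairpin windows shows the same. Matches outside microRNA genes were not searched, and the files do not split a gene's reads by arm.

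The counted reads were 2291821 in replicate 2 and 1950204 in replicate 1, on the own strand of all microRNA genes, so 1 count was worth 0.436 CPM in replicate 2 and 0.513 CPM in replicate 1, the count scaled to a fixed total of these reads. Reads that aligned to several places and were counted in no gene numbered 10399139 in replicate 2 and 6593896 in replicate 1. Of 10 striated muscle microRNA genes, 9 reached 10 counts in each library, most of their counts coming from Mir206, a skeletal muscle microRNA. This does not set muscle apart from other tissue, since 5 of 5 leukocyte microRNA genes listed also reached it. A gene with at least 10 counts in each library is called detected here, and 278 genes were, among them 3 of the 4 genes described. Each read stands for a whole small RNA, so no scaling by gene length was made.

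Together the 4 genes held a small share of the counted reads, and it differed little between the libraries. They had 3470 counts in replicate 2 and 2909 in replicate 1. In replicate 2 this was 0.151% of counts, with an exact Clopper-Pearson 95% interval of 0.146 to 0.157. In replicate 1 it was 0.149%, with an interval of 0.144 to 0.155, and the mean was 0.150% ± 0.0016 (SD, n = 2). The intervals overlap, and like all intervals here they cover counting error only, not the spread between animals or preparations. They also make no allowance for PCR, where copied reads are not separate molecules. Over all reads listed, mapped or not, the share was 0.0241% in replicate 2 and 0.0309% in replicate 1, so the direction between libraries depends on the denominator.

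Mir214 carried most of that sum. It had 3330 counts in replicate 2 and 2631 in replicate 1, which were 1453 CPM (1404 to 1503) in replicate 2 and 1349 CPM (1298 to 1402) in replicate 1. The intervals do not overlap, and replicate 2 was the higher library. Over all reads listed the direction turned, with Mir214 at 232 CPM of listed reads in replicate 2 and 280 CPM in replicate 1. Its mean of 1401 ± 73.5 CPM (SD, n = 2) placed it 52nd of the 278 detected genes, between Mir499, of a myosin gene intron, at 1406 CPM and Mir16-1 at 1338 CPM. Mir499 was near it in the mean only, with 2497 CPM in replicate 2 and 315 CPM in replicate 1. Mir214 made up 96.0% of the reads of the 4 genes in replicate 2 and 90.4% in replicate 1. On the opposite strand Mir214 had 0 counts in replicate 2 and 3 in replicate 1.

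Mir199b differed most between the libraries among the 4 genes. It had 78 counts in replicate 2 and 217 in replicate 1, which were 34.0 CPM (26.9 to 42.5) in replicate 2 and 111 CPM (97.0 to 127) in replicate 1. The intervals do not overlap, and replicate 2 was the low library. Its mean of 72.7 ± 54.6 CPM (SD, n = 2) ranked 161st of the detected genes, next to Mir421 at 73.9 and Mir300 at 71.5 CPM. The SD was 75.2% of the mean for Mir199b, against 5.24% for Mir214 and 10.2% for Mir199a-2.

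Mir199a-2, the partner of Mir214 on Dnm3os, was low in both libraries. It had 60 counts in replicate 2 and 59 in replicate 1, which were 26.2 CPM (20.0 to 33.7) in replicate 2 and 30.3 CPM (23.0 to 39.0) in replicate 1. The intervals overlap. Its mean of 28.2 ± 2.88 CPM (SD, n = 2) ranked 217th, between Mir378b at 28.2 and Mir770 at 27.4 CPM.

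Mir199a-1 was close to the limit of detection. It had 2 counts in each library, which were 0.873 CPM (0.106 to 3.15) in replicate 2 and 1.03 CPM (0.124 to 3.70) in replicate 1. Both lie under 3 counts, the limit that a count of 0 allows, which is 1.31 CPM in replicate 2 and 1.54 CPM in replicate 1. Whether its locus is silent or its reads were set aside with those that align to several places cannot be told apart in these counts.

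In the order of levels, Mir214 stood above Mir199b, then Mir199a-2, then Mir199a-1. Mir214 lay above the intervals of the others in both libraries, and Mir199a-1 below those of Mir199b and Mir199a-2. Mir199b and Mir199a-2 were apart in replicate 1 and had overlapping intervals in replicate 2. The order of the 4 levels was also the order of the number of arm windows found in no other microRNA gene, 18, 11, 7 and 5. This is a description over 4 genes, and the part of read placement in the levels was not tested. The levels of the Mir199 genes therefore describe placed reads and do not rank miR-199 below miR-214 in the muscle.

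**Figure D2:**
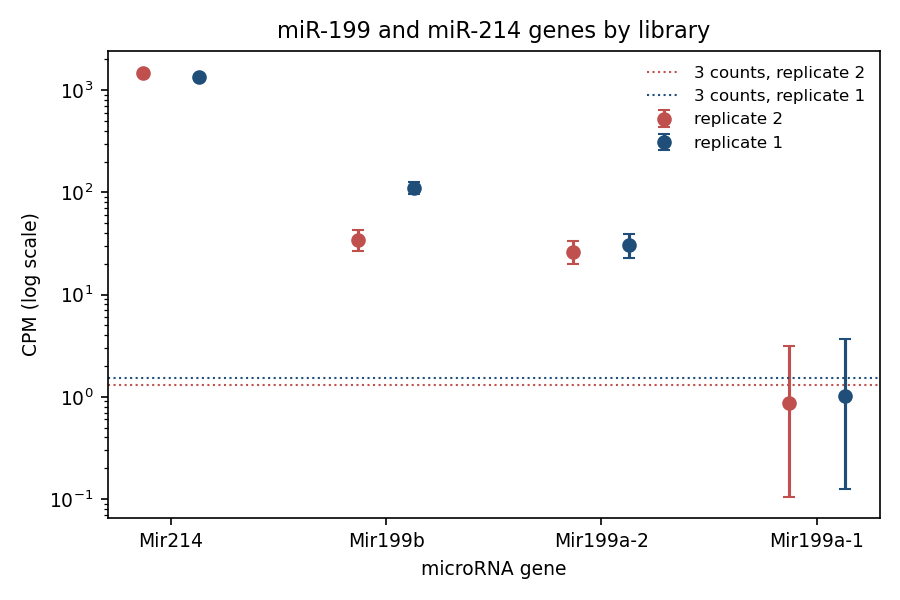
CPM on a log scale for each gene in replicate 2 (red) and replicate 1 (blue), with exact 95% counting intervals, and dotted lines at 3 counts in each library. Mir214 lies near 1401 CPM in both libraries, Mir199b is at 34.0 CPM in replicate 2 and 111 CPM in replicate 1, and Mir199a-1 is under both dotted lines.

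MicroRNA genes with arms that are not their own, the Mir199 genes included, gave a background for these levels. A mature sequence was listed for 1018 genes in the files. Every listed arm recurred in another, not overlapping microRNA gene for 50 of them, and 5 of these (10%) were detected, Mir199a-2 and Mir199b among them. Mir199b was placed in this class by its 3p arm. Of 907 genes with no recurring arm, 213 (23.5%) were detected, Mir214 among them. Any count in either library was found for 8 of the 50, the Mir199 genes among them, and 455 of the 907 genes. At or above the mean CPM of Mir199a-2 were 4 of the 50, with Mir199a-2 and Mir199b counted. So were 169 of the 907, with Mir214 counted. The remaining 61 genes, with some arms recurring, had the highest share detected, 30 genes (49.2%), and 46 had any count. The share detected was thus 23.5% with no arm recurring, 49.2% with some and 10% with all. The classes hold different genes, and the part of read placement was not tested.

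Of the seeds of these genes, 1 was carried by another listed microRNA. The miR-199 3p seed CAGUAGU and the 5p seed CCAGUGU occurred in no other listed mature sequence, nor did GCCUGUC of miR-214-5p. The miR-214-3p seed was shared by 1 further microRNA, shown for comparison.
miR-761: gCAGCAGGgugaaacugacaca
Its gene, Mir761, had 1 count in replicate 2 and 0 in replicate 1, both under the limit of 3 counts, where Mir214 had 3330 in replicate 2 and 2631 in replicate 1.

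The ratio of replicate 2 to replicate 1 was tested for each of the 278 detected genes, a comparison of these libraries and not of conditions. A gene was called when it differed at least 2-fold with an adjusted p under 0.05 (two-sided conditional exact binomial test on library sizes scaled by TMM, Benjamini-Hochberg over all detected genes). The test called 33 genes (11.9%), of which 26 were lower in replicate 2 (9.35%) and 7 higher (2.52%). Of the 3 detected genes described here, 1 was called, Mir199b, and it was lower in replicate 2. Log2 ratios are replicate 2 over replicate 1, with a counting SE.

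Mir199b was lower in replicate 2 by 3.19-fold, with an exact 95% interval of 2.45 to 4.19. Its log2 ratio was −1.67 (SE 0.19, adjusted exact binomial p = 2.99e-20), the 12th lowest of the detected genes. An edgeR exact test that assumes a biological coefficient of variation of 0.2 also called it (adjusted exact p = 0.00595), with 18 genes called lower (6.47%). With a coefficient of 0.352 it was not called (adjusted exact p = 0.588), where 5 genes were called lower (1.8%). That coefficient was estimated from the same 2 libraries, over all detected genes, and so contains the differences being tested. The difference thus passed against counting error, and no independent measure of the spread between animals was at hand.

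Mir214 was higher in replicate 2 by a ratio of 1.10 (1.05 to 1.16). Its log2 ratio of 0.14 (SE 0.038) exceeded counting error (adjusted exact binomial p = 0.000388) and missed the 2-fold minimum. Of the 278 detected genes, 213 differed by at least as much. Mir199a-2 had a ratio of 0.886 (0.608 to 1.29) and a log2 ratio of −0.17 (SE 0.26, adjusted exact binomial p = 0.594), which is within counting error. Mir199a-1 missed the minimum and was not tested, and its ratio of 0.872 had an interval of 0.0632 to 12.0. The median log2 ratio over all detected genes was −0.03, with quartiles at −0.45 and 0.30.

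**Figure D3:**
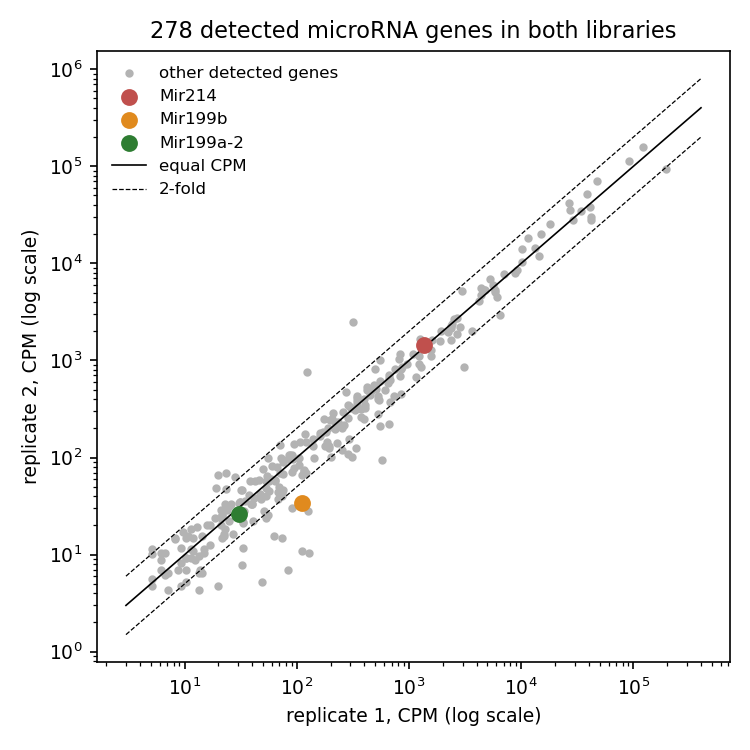
CPM of the 278 detected genes in replicate 2 (vertical) against replicate 1 (horizontal), both on log scales, with lines of equal CPM (solid) and 2-fold difference (dashed). Mir214 and Mir199a-2 lie near the line of equal CPM, and Mir199b lies below the lower 2-fold line.

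Ratios between the genes within a library need no scaling of the libraries. Mir199b had 2.34 reads per 100 reads of Mir214 in replicate 2 and 8.25 in replicate 1. The ratio of these ratios was 0.284, with an exact conditional 95% interval of 0.215 to 0.372, so the pair differed between libraries beyond counting error. Mir214 had 55.5 reads for each read of Mir199a-2 in replicate 2 and 44.6 in replicate 1. The ratio of these ratios, as Mir199a-2 over Mir214, was 0.804 (0.549 to 1.18), an interval that includes equality for the pair on the shared Dnm3os transcript. Against Mir199a-2, Mir199b had 1.3 reads per read in replicate 2 and 3.68 in replicate 1, a ratio of ratios of 0.354 (0.222 to 0.565).

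The genes whose library ratio lay nearest to each gene were found over the 2 libraries alone, as a description. Nearest to Mir199b were Mir350 (log2 ratio −1.58), Mir665 (−1.53) and Mir223 (−1.53), the last known from myeloid cells. Nearest to Mir214 were Mir155 (0.14), known from activated leukocytes, Mir193a (0.14) and Mir497 (0.15). Nearest to Mir199a-2 were Mir92-1 (−0.18), Mir411 (−0.17) and Mir335 (−0.16).

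Other microRNAs linked to connective tissue and matrix summed to more counts than the 4 genes, mostly through Mir21a with a mean of 36173 CPM. The list of Mir21a, known to rise in fibrosis, and the Mir29 genes, which repress collagens, summed to 40573 CPM in replicate 2 and, in replicate 1, to 53252 CPM. The 4 genes summed to 1514 CPM in replicate 2 and, in replicate 1, to 1492 CPM. Of the 5 genes in the list, 5 were detected and 0 were called in either direction at the 2-fold minimum, with a median log2 ratio of −0.02. Mir21a had a log2 ratio of −0.44 (SE 0.0074) and Mir29a of −0.12 (SE 0.015). Mir29c was at −0.02 (SE 0.029), Mir29b-1 at 0.48 (SE 0.29) and Mir29b-2 at 0.82 (SE 0.40). The means of Mir29b-1 and Mir29b-2, 24.9 and 13.4 CPM, lay below those of Mir214, Mir199b and Mir199a-2. Like the levels of the Mir199 genes, these levels and sums describe placed reads and do not rank the mature microRNAs in the muscle.

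Marker microRNAs of other cell types moved beside Mir199b, and fewer cells of a type and less RNA per cell cannot be told apart in bulk tissue. The nerve and glia list had 1976 counts in replicate 2 and 6003 in replicate 1. Of its 9 genes, 1 was detected and called lower, Mir338 of myelinating glia (log2 ratio −1.81), and 6, the Mir9 and Mir124a genes, were at 0 in both. Mir219a-2 and Mir219a-1, the rest of the list, missed the detection minimum and were not tested. For replicate 2 against replicate 1, Mir219a-2 was at 4.36 against 3.59 CPM, and Mir219a-1 at 3.05 against 3.59 CPM. The fall of this list was thus almost all from Mir338, which supplied 1959 of its 1976 counts and 5989 of its 6003. The smooth muscle list was at 9.73% of counts in replicate 2 and 20.3% in replicate 1, with 2 of 2 detected genes, Mir143 and Mir145a, called lower. The leukocyte list was at 0.274% in replicate 2 and 0.368% in replicate 1, with 2 of 5 detected genes, Mir223 and Mir142, called lower, while its most abundant genes, Mir155 and Mir150, had log2 ratios of 0.14 and 0.03. The red cell list was at 0.0460% in replicate 2 and 0.0787% in replicate 1, with 0 of 2 called. These counts stand beside the 9.35% of all detected genes that were called lower. Mir143 and Mir145a were not called at a coefficient of variation of 0.2 (adjusted exact p = 0.141 and 0.105). Mir338, Mir223 and Mir142 were not called at the estimated one (adjusted exact p = 0.406, 0.674 and 0.930).

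The striated muscle and endothelial lists went the other way. Striated muscle was at 4.66% of counts in replicate 2 and 2.79% in replicate 1. Of its 9 detected genes, 2 were called higher and 0 lower, against 2.52% of all detected genes called higher. These were Mir499 (log2 ratio 3.02) and Mir208b (2.67), also called at the estimated coefficient of variation (adjusted exact p = 0.00887 and 0.0283). Most counts of the list came from Mir206, which was not called (log2 ratio 0.69). It supplied 96104 of 106727 counts in replicate 2 and 52086 of 54501 in replicate 1. The endothelial list, all of it Mir126a with Mir126b at 0, was at 15.7% in replicate 2 and 12.1% in replicate 1, with 0 of 1 called. The part of cell makeup in the Mir199b difference was not tested. Mir214, the most deeply counted of the 4 genes, moved by less than all of these lists' summed shares.

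**Figure D4:**
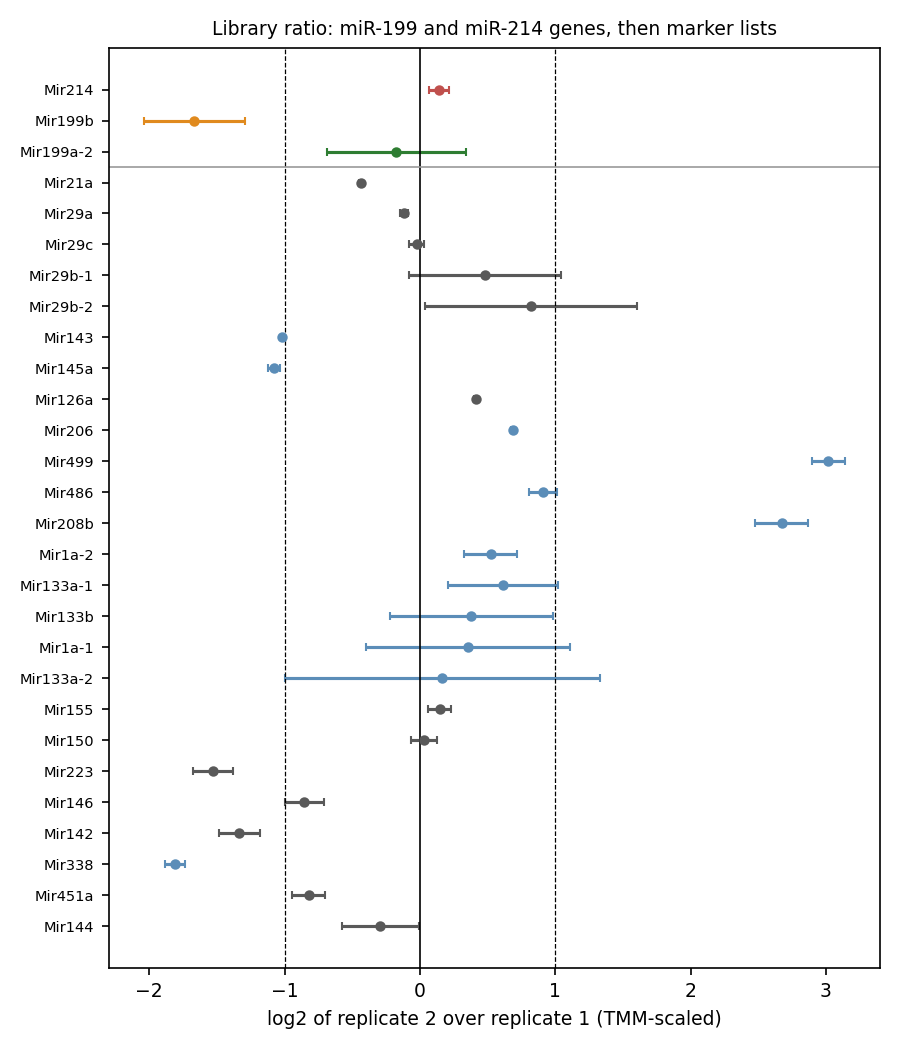
Log2 of replicate 2 over replicate 1 on TMM-scaled sizes, with 95% counting intervals, for the 3 detected miR-199 and miR-214 genes (above the grey line) and the detected genes of each marker list below, with colour changing from list to list. Dashed lines mark 2-fold. Mir199b lies at −1.67, near Mir338 at −1.81 and Mir223 at −1.53, while Mir214 lies at 0.14 and Mir199a-2 at −0.17.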

How the data were processed

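The authors deposited unnormalized read counts for each microRNA gene, in columns for either strand, the own strand and the opposite strand, on mm10 with GENCODE M21 per the file notes. Which aligner and counter made them is not given in the sources used here. Own-strand counts were used: at 2138 genes with no partner on the other strand, they held 1607472 counts in replicate 2 and 1485599 in replicate 1, against 26 in replicate 2 and 33 in replicate 1 on the opposite strand. Rows for unmapped, multiply aligned and unassigned reads did not enter the totals.

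All 2202 identifiers matched the annotation. CPM is over the own-strand total. The comparison used TMM sizes (edgeR 4.0.16), a prior of 0.5 counts for log2 ratios and the exact binomial test, since with 1 group the quasi-likelihood test could not be fitted. It was tested on simulated data that held counting error only, so that check does not cover any further spread between libraries. The genes, lists and tests were chosen with earlier results of these data known. The named genes follow a rule: the 4 genes, overlapping or neighbouring microRNA genes, those sharing a seed, the 3 nearest in library ratio and those ranked nearest in mean CPM, not all of which are printed, with the marker lists as sums. Sequence matches were searched in annotated microRNA hairpins on both strands. The reference is C57BL/6J sequence, while the mice also carry CAST/EiJ alleles. R 4.3.3, DESeq2 1.42.0, Python 3.11.15, scipy 1.17.1, pandas 2.3.3, Biopython 1.88 and matplotlib 3.10.9 were used.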

Additional observations from a re-analysis of the deposited data

Results flagged for a closer look

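Reads with several alignments were 72.33% of those in the replicate 2 file and 70.07% of those in the replicate 1 file. They stand outside the gene counts used here, and the files do not say which microRNAs they came from. The placed reads of the 4 genes equalled 0.0334% of that number in replicate 2 and 0.0441% in replicate 1. How many of the reads set aside were miR-199 was not tested.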

How the results depend on the processing

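The log2 ratio of Mir199b ranged from −1.70 to −1.64 over 9 alternatives and was called in all but the edgeR exact test with the estimated coefficient of variation. That of Mir214 ranged from 0.11 to 0.17 and was called only without a fold minimum, and that of Mir199a-2 ranged from −0.21 to −0.15 and was never called. The summed share, 0.150%, was 0.206% on unstranded counts, whose total leaves out ambiguous reads, and 0.0275% over all reads listed. It was 0.151% without replicate 1 and 0.149% without replicate 2. The 33 calls became 18 at 50 counts in each library, where fewer genes were tested, 67 at a 1.5-fold minimum, 154 with none and 7 with the estimated coefficient of variation. With DESeq2 size factors there were 32, with unscaled totals 34 and on unstranded counts 31. With no count minimum 48 of 583 genes were called, and 22 genes were called at a coefficient of variation of 0.2. The log2 ratios of the 3 genes moved only with DESeq2 size factors, unscaled totals or unstranded counts, and none changed sign. The other alternatives changed the genes tested, the fold minimum or the test, so they could not move these ratios. Over all reads listed, however, Mir214 was lower in replicate 2 (232 CPM, against 280 CPM in replicate 1). The median log2 ratio of all genes, −0.03, was 0.01 at 50 counts. No paired analysis was possible because there is 1 group. Leaving out a library leaves no comparison between the 2. The 2 counts of Mir199a-1 lie under the limit of 3 counts.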
